A study of Arabidopsis thaliana with 12 samples.

Results

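The transcripts of spaQ seedlings and of wild-type Col-0 seedlings were compared in the warmth, at 28 °C. The groups compared are 6 of the 12 libraries of the series, chosen by genotype and temperature, with 3 libraries of each genotype. The comparison covers the 17841 of 33655 genes of the count table that passed a filter on low counts. Per the labels, Arabidopsis thaliana seeds had 3 days of cold in the dark and 5 days at 22 °C in white light (25 µmol), and the seedlings then went into the treatment and were collected at an age of 6 days. Col-0 is the wild-type accession. The spaQ line is known as the quadruple mutant of SPA1, SPA2, SPA3 and SPA4; the labels name neither its alleles nor its background. Treatment lasted 24 h by the series text but 4 h by the sample protocols, so the time in the warmth is uncertain. The sample protocols end with 22 °C even for samples labelled 28 °C, and the temperature is taken here from the temperature label. The other 6 libraries hold the same genotypes kept at 22 °C, and they show where the difference at 28 °C departs from that at 22 °C. They also enter the filter on low counts, the scaling and the estimate of spread used for the comparison at 28 °C.

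SPA proteins form an E3 ubiquitin ligase with COP1. In darkness and in weak light this complex marks light-promoting transcription factors such as HY5 and HFR1 for breakdown, and it helps to keep PIF factors active. PIF4 in particular drives the auxin synthesis and cell elongation by which Arabidopsis seedlings respond to warmth, a response called thermomorphogenesis. HY5 acts in the other direction: it promotes pigment synthesis and chloroplast development and opposes the growth genes that PIF4 switches on.

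Levels are given in CPM, counts scaled to a common library size with edgeR's TMM factors, for replicates 1, 2 and 3 in that order. They come from 3′ Tag-Seq, which reads the ends of transcripts. A fold change is spaQ over Col-0 on the log2 scale, followed by ± its standard error and by the p of edgeR's quasi-likelihood test with Benjamini-Hochberg adjustment over all 17841 genes. A gene with an adjusted p under 0.05 is called. The labels do not say that replicates came from separate plants or cultures, so the p-values measure only the spread between libraries. That spread was estimated over all 12 libraries. All samples are whole-seedling RNA, in which fewer cells of a type and less RNA per cell cannot be told apart.

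Total counts were between 3382922 and 9390725 in Col-0 and between 2762028 and 4216858 in spaQ, and a floor of 3 counts corresponded to between 0.279 and 1.19 CPM in these 6 libraries. Replicate 2 of spaQ stood apart. Its counts differed from those of replicates 1 and 3 by a chi-square of 20.7 and 24.8 per degree of freedom, against 5.88 between replicates 1 and 3 and at most 6.93 between any Col-0 libraries at 28 °C. It was the library farthest from the middle one of its group for 48.9% of the genes with at least 10 CPM on average. This share was 27.8% and 23.3% for replicates 1 and 3 of spaQ. For replicates 1, 2 and 3 of Col-0 it was 31.6%, 39.4% and 29.1%. Root hair markers summed to 104.7 CPM in replicate 2 of spaQ, against 17.8 and 16.9 CPM in the other spaQ libraries and 14.0 to 14.8 CPM in Col-0. Counts and medians without that library are given for many of the lists but not for all, so a list given without them may also have moved.

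At 28 °C, 5519 genes were called, 30.93% of those tested. Of these, 3103 were higher in spaQ (17.39% of the genes tested) and 2416 were lower (13.54%). The change was at least 1 log2 unit for 2566 of the called genes, 1194 higher and 1372 lower, and at least 2 log2 units for 649. The groups did not overlap for 5197 of the called genes (94.2%), against 40.7% of all genes tested. A lack of overlap, given below for many genes, therefore adds little to a call. Without replicate 2 of spaQ, 6346 genes were called, among them 4813 of the 5519. A fit of the 6 libraries at 28 °C alone called 4008 genes. Scaling by library totals in place of TMM moved the median over all genes from 0.029 to −0.235 on the log2 scale and the share of calls that were higher from 56.2% to 28.4%, and changes are to be read relative to that median. Of the 22 pathway lists described here, the median changed sign between these scalings for repressors of light signalling, photoreceptors, photosystem subunits, jasmonate genes and indole defence genes. At 22 °C, 42.45% of the genes were called, 20.73% higher and 21.73% lower in spaQ. The difference between genotypes itself differed between the temperatures for 11.87% of the genes, with 6.58% more positive at 28 °C and 5.286% more negative. The balance of these directions was not stable: 1174 were more positive and 943 more negative, against 485 and 1406 with library totals, 985 and 1004 with DESeq2 size factors, and 664 and 1087 without replicate 2 of spaQ at 28 °C.

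Genes called at both temperatures numbered 3518, and 3384 of them had the same direction. The other 134 changed direction, 89 being higher at 28 °C and lower at 22 °C and 45 the reverse, and all 134 were also called for the difference between the temperatures. Another 2001 genes were called at 28 °C alone, 579 of them with a called difference between the temperatures.

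The 4 SPA transcripts were themselves altered. SPA1 (AT2G46340) was measured at 65.2, 61.1 and 67.2 CPM in Col-0 and 25.3, 17.1 and 20.9 CPM in spaQ (−1.63 ± 0.13, adjusted p = 2.82e-06). SPA2 (AT4G11110) stood at 27.8, 28.8 and 24.2 CPM in Col-0 and 16.2, 10.03 and 12.3 CPM in spaQ (−1.09 ± 0.21, adjusted p = 0.00186). For SPA3 (AT3G15354) the levels were 39.2, 36.5 and 31.3 CPM in Col-0 and 14.3, 19.6 and 20.6 CPM in spaQ (−0.96 ± 0.18, adjusted p = 0.00138). All 3 were lower in every spaQ library than in any Col-0 library, but none was near the floor. SPA4 (AT1G53090) went the other way, with 14.2, 14.6 and 11.98 CPM in Col-0 and 26.1, 39.9 and 34.4 CPM in spaQ (1.32 ± 0.17, adjusted p = 8.97e-05). Tags near the 3′ end can be read downstream of an insertion, so these levels do not test which SPA proteins are lost. SPA3 and SPA4 also overlap genes on the other strand, and the strand setting of the counting is not given in the sources used here. COP1 (AT2G32950), the partner of the SPA proteins, was higher in all spaQ libraries, at 28.9, 33.1 and 33.8 CPM in Col-0 and 53.5, 46.0 and 47.0 CPM in spaQ (0.61 ± 0.11, adjusted p = 8.78e-04). CUL4, the cullin scaffold of the same ligase, was at 70.2, 73.0 and 67.7 CPM in Col-0 and 68.5, 80.7 and 76.4 CPM in spaQ and was not called (0.10 ± 0.10, adjusted p = 0.493). Among 13 genes for repressors of light signalling, 3 were higher, 3 lower and 7 not called, and the lower ones were SPA1, SPA2 and SPA3.

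**Figure D1:**
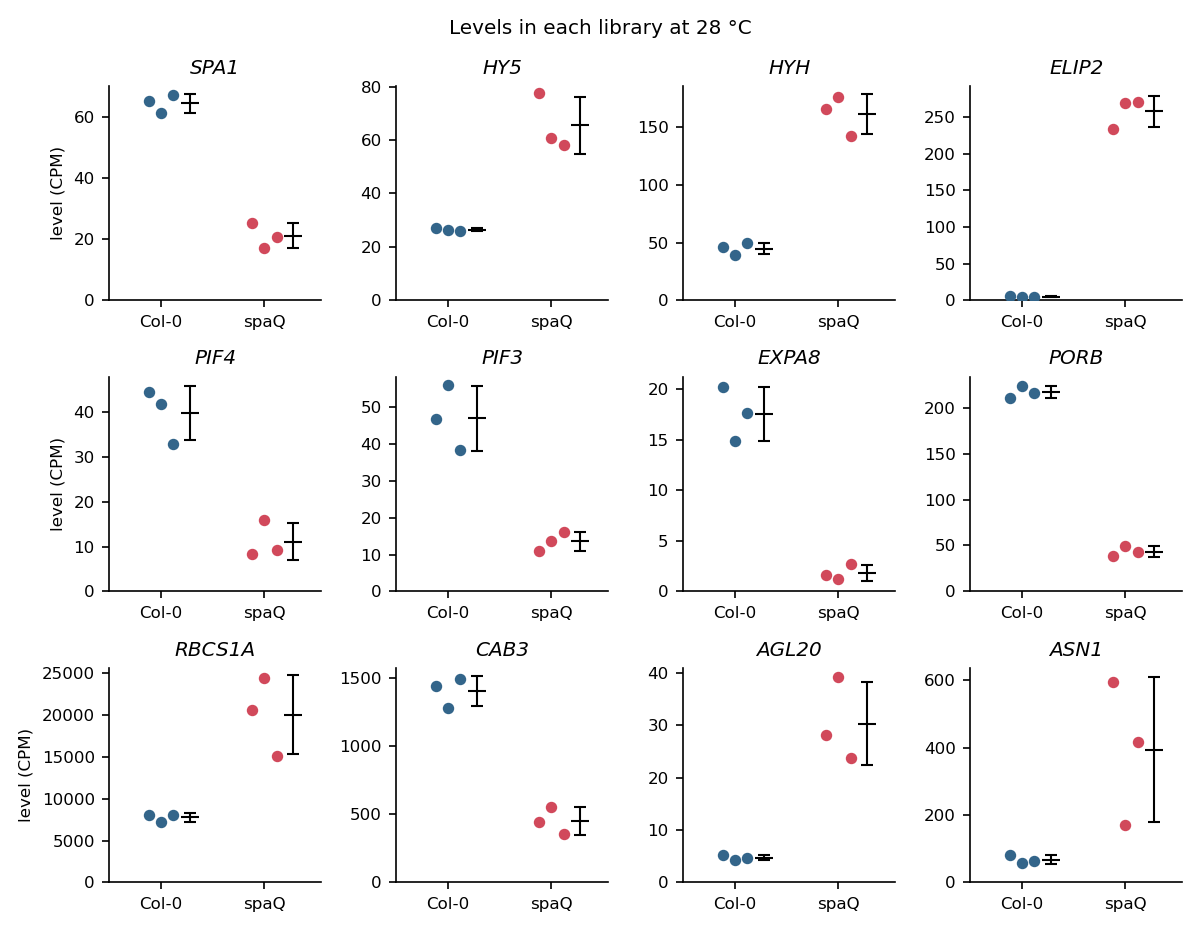
Levels of 12 genes at 28 °C in CPM on linear axes that start at 0. Each point is a library (blue Col-0, red spaQ, replicates 1 to 3 from left to right in each group), and the black bar gives the mean ± SD of 3 libraries. The groups do not overlap in any panel, as in 94.2% of all called genes. SPA1, PIF4, PIF3, EXPA8, PORB and CAB3 lie lower in spaQ, and HY5, HYH, ELIP2, RBCS1A, AGL20 and ASN1 lie higher.

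Transcription factors of light signalling, listed as promoting light responses, were mostly higher in spaQ. Of 18 tested, 10 were higher and 4 lower, with a median log2 fold change of 0.78 against 0.029 for all genes. Without replicate 2 of spaQ these counts were the same and the median was 0.39. HY5 (AT5G11260), a bZIP factor that is a target of the COP1/SPA ligase and is named here after its values were seen, was at 27.0, 26.2 and 26.2 CPM in Col-0 and 77.6, 60.9 and 58.0 CPM in spaQ (1.3 ± 0.13, adjusted p = 1.51e-05). Its close relative HYH (AT3G17609) was at 45.9, 39.3 and 49.4 CPM in Col-0 and 165, 176 and 142 CPM in spaQ (1.84 ± 0.12, adjusted p = 4.09e-07). The 3 spaQ libraries lay above all Col-0 libraries for both genes. For HYH the difference was larger at 28 °C than at 22 °C, where it was 0.92 (adjusted p of the difference 0.00623). Some of the B-box zinc finger factors in the list act otherwise. Among them, BBX32 is known to restrain the response to light, and BBX31 to do so in visible light. The counts and medians of the list include such factors. BBX32 was at 5.39, 7.45 and 4.84 CPM in Col-0 and 27.7, 24.5 and 27.0 CPM in spaQ (2.21 ± 0.24, adjusted p = 2.54e-05). BBX31 was measured at 8.55, 8.48 and 5.18 CPM in Col-0 and 23.8, 30.3 and 25.8 CPM in spaQ (1.87 ± 0.21, adjusted p = 3.00e-05). BBX29 was weakly expressed, at 1.95, 2.83 and 2.42 CPM in Col-0 and 5.94, 8.07 and 9.21 CPM in spaQ (1.74 ± 0.29, adjusted p = 5.80e-04). All spaQ values of these B-box genes exceeded all Col-0 values. PAR1, a helix-loop-helix protein that restrains PIFs and auxin responses in shade, fell, from 7.06, 6.17 and 4.72 CPM in Col-0 to 1.19, 2.201 and 2.15 CPM in spaQ (−1.64 ± 0.33, adjusted p = 0.00232). HFR1, which sequesters PIF4, was not called at 28 °C (0.24 ± 0.22, adjusted p = 0.471), while it was higher in spaQ by 1.72 at 22 °C, and the difference between the temperatures was called (adjusted p = 0.0207). FHY3, a factor of phytochrome A signalling, had the most counts of the members not called, at 45.3, 42.1 and 41.2 CPM in Col-0 and 56.2, 47.2 and 45.1 CPM in spaQ.

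Genes of the PIF factors and of warmth-induced growth were mostly lower. Of 16 tested, 11 were lower, 1 was higher and 4 were not called, and the median was −1.22. PIF4 (AT2G43010), the factor central to thermomorphogenesis, was at 44.6, 41.9 and 32.9 CPM in Col-0 and 8.32, 15.9 and 9.21 CPM in spaQ (−1.795 ± 0.21, adjusted p = 4.00e-05). Replicate 2 of spaQ was the highest of its group and still below all Col-0 libraries; without it the change was −2.202. PIF3 (AT1G09530), a related factor known from seedling de-etiolation, was at 46.8, 56.0 and 38.4 CPM in Col-0 and 11.1, 13.7 and 16.3 CPM in spaQ (−1.76 ± 0.19, adjusted p = 1.88e-05). At 22 °C PIF3 was not called (0.34), and the difference between the temperatures was called (adjusted p = 0.00178). PIF4 was lower at both temperatures, with −2.17 at 22 °C.

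Growth genes of the same list had few counts in spaQ. EXPA8, an expansin that loosens the cell wall, was at 20.3, 14.9 and 17.63 CPM in Col-0 and 1.58, 1.22 and 2.76 CPM in spaQ (−3.26 ± 0.25, adjusted p = 1.55e-06). IAA29, an auxin-response gene induced by PIFs, had 4.37, 4.37 and 2.76 CPM in Col-0 and no count in any spaQ library (adjusted p = 0.00104). Against a floor of 3 counts per library, averaged over the group, it was at least 4.05-fold lower. SAUR22, one of the small auxin-up RNAs of elongating hypocotyls, was at 9.85, 5.91 and 3.80 CPM in Col-0 and 0, 0.245 and 0.307 CPM in spaQ (adjusted p = 9.72e-04) and at least 6.88-fold lower on the same floor. XTH15, a cell wall glucan-modifying enzyme, varied more, at 68.4, 31.1 and 21.2 CPM in Col-0 and 3.56, 19.6 and 2.15 CPM in spaQ (−2.16 ± 0.61, adjusted p = 0.0161); without replicate 2 of spaQ the change was −3.90 (adjusted p = 4.59e-04). HAT2, an auxin-induced homeodomain factor, was not called, at 21.6, 19.0 and 16.6 CPM in Col-0 and 12.3, 12.5 and 17.8 CPM in spaQ (−0.43 ± 0.25, adjusted p = 0.221). Without replicate 1 of Col-0, 7 members were called lower in place of 11.

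Among hormone genes of growth more were lower than higher, in a list that holds genes for synthesis, receptors and repressors alike. Of 21 genes for gibberellin and brassinosteroid metabolism and signalling, 7 were lower and 3 higher, with a median of −0.25; without replicate 2 of spaQ, 10 were lower and 2 higher, with a median of −0.40. CPD, an enzyme of brassinosteroid synthesis, was at 141, 114 and 107 CPM in Col-0 and 20.6, 43.3 and 34.4 CPM in spaQ (−1.86 ± 0.23, adjusted p = 7.01e-05). BRH1, a brassinosteroid-responsive RING protein, was at 71.1, 75.3 and 60.8 CPM in Col-0 and 15.8, 22.5 and 20.6 CPM in spaQ (−1.79 ± 0.14, adjusted p = 1.90e-06) and differed less at 22 °C (−0.41, adjusted p of the difference 0.0025). All Col-0 libraries lay above all spaQ libraries for both. Of the DELLA repressors of gibberellin signalling, GAI was at 33.9, 27.7 and 26.7 CPM in Col-0 and 6.34, 7.83 and 6.75 CPM in spaQ (−2.07 ± 0.17, adjusted p = 2.39e-06). RGL1 was measured at 5.58, 5.91 and 5.64 CPM in Col-0 and 0.792, 0.734 and 3.07 CPM in spaQ (−1.88 ± 0.44, adjusted p = 0.00526). The gibberellin receptor gene GID1B was higher, at 18.5, 28.3 and 22.9 CPM in Col-0 and 45.9, 31.8 and 47.9 CPM in spaQ (0.86 ± 0.18, adjusted p = 0.00254), but by less than at 22 °C (2.16, adjusted p of the difference 0.0119). GA3OX2, for an enzyme that makes active gibberellin, was near the floor, at 0.558, 0 and 0.23 CPM in Col-0 and 0.396, 4.65 and 1.84 CPM in spaQ, and its call was lost without replicate 2 of spaQ (1.73, adjusted p = 0.119). BRI1, the brassinosteroid receptor, was at 69.7, 69.1 and 74.1 CPM in Col-0 and 47.9, 70.4 and 51.3 CPM in spaQ and not called (−0.32 ± 0.14, adjusted p = 0.111); without replicate 2 of spaQ it was called lower (−0.55, adjusted p = 0.00375).

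Early light-induced and photoprotective genes were higher nearly throughout: 13 of 14 were called higher and none lower, with a median of 1.22. ELIP2 (AT4G14690), whose product binds pigments in thylakoids under light stress, was at 5.76, 4.62 and 4.61 CPM in Col-0 and 233, 269 and 269 CPM in spaQ (5.66 ± 0.15, adjusted p = 2.52e-10). Every spaQ library lay far above every Col-0 library. The difference was larger than at 22 °C, where it was 4.21 (adjusted p of the difference 0.00134). ELIP1 (AT3G22840), its close relative, was at 24.9, 11.0 and 26.7 CPM in Col-0 and 241, 269.8 and 295 CPM in spaQ (3.64 ± 0.26, adjusted p = 9.91e-07). AT1G76570, an LHC-like protein gene, had 14.8, 13.9 and 13.4 CPM in Col-0 and 41.2, 63.8 and 35.3 CPM in spaQ (1.75 ± 0.21, adjusted p = 4.34e-05). NPQ4 (PsbS), the sensor for the dissipation of excess light as heat, was at 918, 867 and 844 CPM in Col-0 and 1865, 2704 and 2146 CPM in spaQ (1.35 ± 0.14, adjusted p = 1.27e-05). NPQ1, for the violaxanthin de-epoxidase of the xanthophyll cycle, was at 40.6, 31.9 and 34.1 CPM in Col-0 and 84.7, 110.1 and 66.6 CPM in spaQ (1.29 ± 0.17, adjusted p = 8.00e-05). CYP97A3, a carotene hydroxylase, was at 57.9, 60.9 and 55.4 CPM in Col-0 and 150.1, 188 and 147 CPM in spaQ (1.48 ± 0.12, adjusted p = 2.36e-06). The spaQ libraries lay above all Col-0 libraries for each of these genes. For NPQ4, NPQ1 and CYP97A3 the difference was also larger at 28 °C than at 22 °C, where it was 0.48, 0.42 and 0.77. LUT1, another carotenoid hydroxylase gene, was the member not called (0.51 ± 0.21, adjusted p = 0.0846).

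Calvin cycle genes were higher without exception. All 15 tested were called higher, all 15 had no overlap between the groups, as 40.7% of all genes tested had, and the median was 1.16. Without replicate 2 of spaQ the median was 0.96. Their summed level was 17930 to 19580 CPM in Col-0 and 43740, 54940 and 37050 CPM in spaQ. RBCS1A (AT1G67090), a gene of the Rubisco small subunit, was at 8074, 7171 and 8009 CPM in Col-0 and 20577, 24390.0 and 15035 CPM in spaQ (1.37 ± 0.16, adjusted p = 4.05e-05). RBCS1B was at 229, 185 and 261 CPM in Col-0 and 606, 880.0 and 505 CPM in spaQ (1.56 ± 0.20, adjusted p = 8.56e-05). RBCS3B was at 797, 753 and 1096 CPM in Col-0 and 2327, 2955 and 2072 CPM in spaQ (1.47 ± 0.19, adjusted p = 7.27e-05). These are members of 1 family with similar coding sequences. GAPA and GAPB, the subunits of the chloroplast glyceraldehyde-3-phosphate dehydrogenase, were both higher. GAPA was at 902, 881 and 921 CPM in Col-0 and 2305, 2768 and 2235 CPM in spaQ (1.43 ± 0.11, adjusted p = 1.88e-06). GAPB was at 1032, 977 and 1010.3 CPM in Col-0 and 2213, 2807 and 2124 CPM in spaQ (1.24 ± 0.12, adjusted p = 1.05e-05). RCA, which reactivates Rubisco, was at 3516, 3395 and 3332 CPM in Col-0 and 7006, 9357 and 6303 CPM in spaQ (1.15 ± 0.14, adjusted p = 5.64e-05). SBPASE, an enzyme of the regeneration phase, was at 255, 251 and 265 CPM in Col-0 and 478, 681 and 511 CPM in spaQ (1.11 ± 0.13, adjusted p = 4.21e-05). At 22 °C, 7 of the 15 were called higher, with a median of 0.32, and the difference between the temperatures was called for 14. At 22 °C the summed level of these genes was 43290 to 46690 CPM in Col-0 and 56200 to 63420 CPM in spaQ. The sum in spaQ at 28 °C overlapped that of Col-0 at 22 °C, and the libraries of Col-0 at 28 °C were the lowest of the 4 groups. All 15 stayed called at 28 °C when any of the 6 libraries at 28 °C was left out, and 14 did with scaling by library totals or in a fit of those 6 libraries alone. The 14 calls for the difference between the temperatures were not checked in this way.

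Light-harvesting genes went the other way. Of 19, 11 were lower, 2 higher and 6 not called, with a median of −0.66. Leaving out replicate 2 of spaQ gave 13 lower and 2 higher, with a median of −0.87. LHB1B1, of the main antenna of photosystem II, was at 433, 303 and 476 CPM in Col-0 and 70.1, 130.4 and 21.5 CPM in spaQ (−2.44 ± 0.43, adjusted p = 8.26e-04). CAB3 (AT1G29910), another gene of that antenna family, was at 1435, 1277 and 1491 CPM in Col-0 and 442, 553 and 355 CPM in spaQ (−1.64 ± 0.18, adjusted p = 2.52e-05). LHCB2.2 was at 468, 415 and 471 CPM in Col-0 and 162, 215 and 94.2 CPM in spaQ (−1.52 ± 0.23, adjusted p = 2.67e-04). LHCB4.2, of a minor antenna protein, was at 831, 754 and 858 CPM in Col-0 and 312, 405 and 276 CPM in spaQ (−1.298 ± 0.15, adjusted p = 4.66e-05). LHCB3 was at 2290.2, 2013 and 2719 CPM in Col-0 and 1036, 1409 and 858 CPM in spaQ (−1.09 ± 0.18, adjusted p = 6.14e-04). For each of these 5 genes all Col-0 libraries lay above all spaQ libraries, and replicate 2 was the highest of the spaQ libraries. The member not called with the most counts was LHB1B2, at 3433, 2958 and 3408 CPM in Col-0 and 3077, 3582 and 2224 CPM in spaQ (−0.14 ± 0.18, adjusted p = 0.609). Lhca6, a minor photosystem I antenna that links it to the NDH complex, was higher, at 41.6, 37.5 and 38.6 CPM in Col-0 and 70.9, 94.9 and 80.7 CPM in spaQ (1.07 ± 0.12, adjusted p = 2.79e-05), which was not so at 22 °C (0.089, adjusted p of the difference 0.00531). LHCB2.3 was lower at 22 °C (−2.26) and not called at 28 °C (0.03 ± 0.30, adjusted p = 0.959), and the difference between the temperatures was called (adjusted p = 0.008). For LHB1B1 the reduction was larger at 22 °C (−4.44, adjusted p of the difference 0.0421).

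Photosystem subunits showed no common direction, with 5 of 22 higher and 3 lower and a median of 0.011. Without replicate 2 of spaQ, 5 were higher and 10 lower, and the median was −0.18; with scaling by library totals, 1 was higher and 10 lower. PSB27, an assembly factor of photosystem II, was at 186, 167 and 181 CPM in Col-0 and 404, 573 and 333 CPM in spaQ (1.298 ± 0.17, adjusted p = 7.82e-05) and was not called at 22 °C (0.10, adjusted p of the difference 0.00895). PSBO2 and PSBR, of the oxygen-evolving side, were higher by 0.59 and 0.61. PSBQ-2, also of that side, was lower, at 606, 678 and 769 CPM in Col-0 and 380.2, 391 and 331 CPM in spaQ (−0.90 ± 0.12, adjusted p = 1.16e-04). PSAD-2, a photosystem I subunit, was at 513, 479.9 and 633 CPM in Col-0 and 305, 341 and 263 CPM in spaQ (−0.84 ± 0.13, adjusted p = 3.01e-04). PSBW was the member not called with the most counts (0.27 ± 0.12, adjusted p = 0.0989).

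Chlorophyll synthesis genes were higher at 28 °C, whereas 9 of them were lower at 22 °C. Of 18 tested, 11 were higher at 28 °C and 1 lower (median 0.42), against 1 higher and 9 lower at 22 °C (median −0.36), and the difference between the temperatures was called for 14. HEMA1, for the glutamyl-tRNA reductase that commits to tetrapyrrole synthesis, was at 73.4, 92.2 and 106 CPM in Col-0 and 175, 208 and 131 CPM in spaQ (0.92 ± 0.17, adjusted p = 0.00102), with −0.26 at 22 °C (adjusted p of the difference 0.0093). GUN5, the large subunit of magnesium chelatase, was at 508, 491 and 588 CPM in Col-0 and 793, 1153 and 753 CPM in spaQ (0.77 ± 0.16, adjusted p = 0.00301). PCB2, a divinyl reductase, was at 27.1, 33.7 and 36.6 CPM in Col-0 and 55.4, 65.6 and 42.7 CPM in spaQ (0.76 ± 0.19, adjusted p = 0.00884). The spaQ libraries lay above those of Col-0 for these 3 genes. HEMA2, the second reductase gene, was at 30.9, 51.6 and 43.8 CPM in Col-0 and 114, 39.6 and 93.9 CPM in spaQ, with replicate 2 of spaQ inside the Col-0 range (0.97 ± 0.34, adjusted p = 0.0463). The call of HEMA2 was lost in 10 of 16 alternative fits. CRD1, a cyclase subunit, was not called (0.34 ± 0.14, adjusted p = 0.0876). PORB (AT4G27440), for a light-dependent protochlorophyllide reductase, was the member that fell. It was at 211, 224 and 216 CPM in Col-0 and 38.0, 49.4 and 42.7 CPM in spaQ (−2.32 ± 0.11, adjusted p = 8.49e-08), with a similar difference at 22 °C (−2.41). The calls at 28 °C depended on the libraries: 7 members were called higher when any Col-0 library at 28 °C was left out, 8 without replicate 2 of spaQ, where 2 were lower and the median was 0.19, and 3 with scaling by library totals. For the 14 calls of the difference between the temperatures this was not checked.

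**Figure D2:**
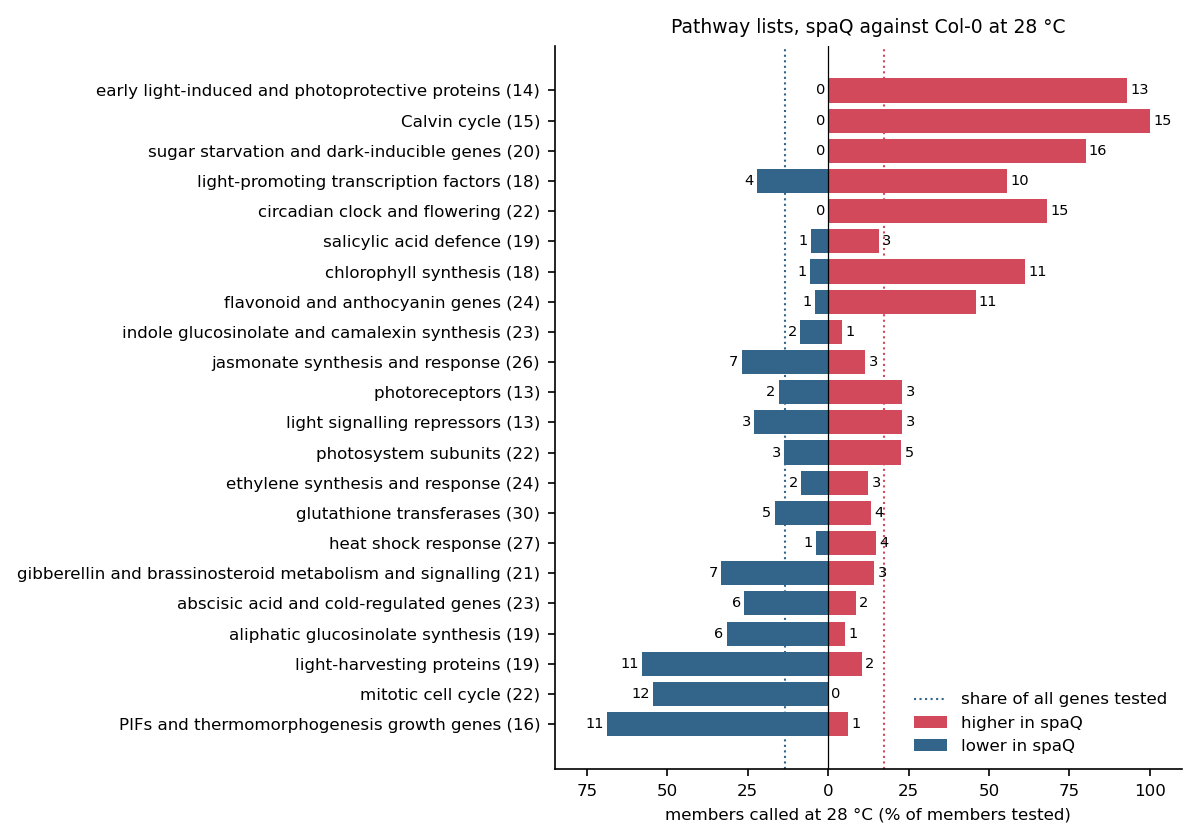
Share of the members tested that were called higher (red, to the right) or lower (blue, to the left) in spaQ at 28 °C, in percent, for 22 pathway lists with the number tested in brackets and the number called beside each bar. Dotted lines mark the shares over all genes tested, 17.39% higher and 13.54% lower; lists are ordered by their median log2 fold change, from the PIF and growth genes with 11 of 16 lower to the early light-induced genes with 13 of 14 higher.

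Flavonoid genes were higher or not called, except 1 regulator. Of 24 tested, 11 were higher, 1 lower and 12 not called, with a median of 0.27. Among the enzymes, TT4, the chalcone synthase, was at 193, 189.9 and 152 CPM in Col-0 and 317, 696 and 378 CPM in spaQ (1.38 ± 0.24, adjusted p = 7.00e-04). TT5, the chalcone isomerase, was at 31.8, 29.3 and 28.8 CPM in Col-0 and 77.6, 97.3 and 79.5 CPM in spaQ (1.502 ± 0.13, adjusted p = 3.67e-06). FLS1, which makes flavonols, was at 16.6, 15.9 and 22.2 CPM in Col-0 and 49.5, 107 and 55.5 CPM in spaQ (1.95 ± 0.26, adjusted p = 1.14e-04). The groups did not overlap for these genes, and replicate 2 was the highest spaQ library in each. MYB12, an activator of flavonol synthesis, was at 2.97, 1.28 and 1.27 CPM in Col-0 and 3.96, 15.4 and 5.22 CPM in spaQ (2.11 ± 0.50, adjusted p = 0.00641), and its call was lost without that library (1.18, adjusted p = 0.0676). Several genes of anthocyanin synthesis were lower or not called. PAP1, a MYB activator of anthocyanin genes, was lower, at 14.2, 21.1 and 14.3 CPM in Col-0 and 3.96, 3.67 and 7.67 CPM in spaQ (−1.67 ± 0.28, adjusted p = 5.74e-04), whereas it was higher by 1.06 at 22 °C (adjusted p of the difference 0.00538). Its relative MYB90 was at 4.55, 5.40 and 4.61 CPM in Col-0 and 1.19, 2.201 and 3.99 CPM in spaQ and not called (−0.92 ± 0.41, adjusted p = 0.108); at 22 °C it was higher by 3.25. TT8, the bHLH partner of these MYBs, was at 1.95, 3.08 and 2.19 CPM in Col-0 and 1.19, 1.96 and 3.68 CPM in spaQ (0.011 ± 0.43, adjusted p = 0.989), with 3.28 at 22 °C. LDOX, a late enzyme, was at 53.6, 71.2 and 44.7 CPM in Col-0 and 33.7, 27.1 and 56.8 CPM in spaQ (−0.52 ± 0.25, adjusted p = 0.132), with 1.93 at 22 °C (adjusted p of the difference 0.00265). At 22 °C 20 of the 24 were higher (median 1.38) and none lower, and the difference between the temperatures was called for 9. Leaving out replicate 2 of spaQ gave 8 higher and 4 lower, leaving out replicate 3 gave 10 higher and 7 lower at 28 °C, and scaling by library totals gave 9 higher and 5 lower.

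**Figure D3:**
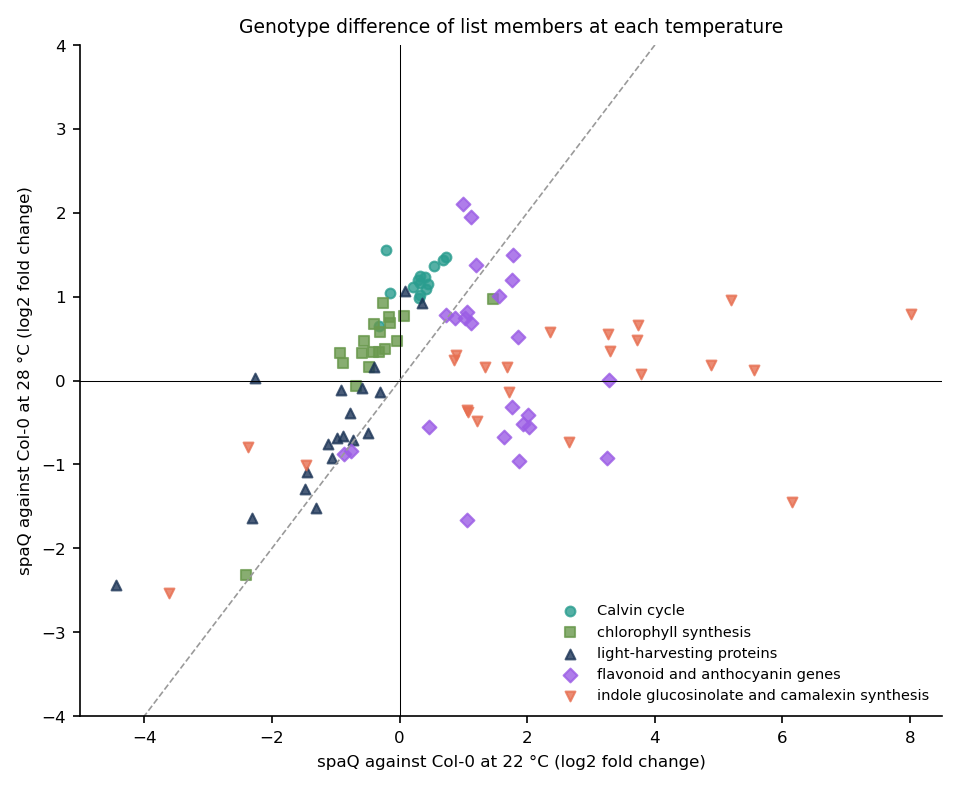
Log2 fold change of spaQ over Col-0 at 22 °C (horizontal) and at 28 °C (vertical) for the tested members of 5 lists, 1 point per gene; the dashed line marks equal differences. Calvin cycle genes (15 of 15 called at 28 °C) lie above the line, as do the chlorophyll synthesis genes except HEMA2, light-harvesting genes lie mostly in the lower left, and most indole glucosinolate and camalexin genes lie to the right, with log2 fold changes nearer 0 at 28 °C.

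Promoter windows from 250 bases before to 50 after the annotated start were read from RefSeq's TAIR10.1 for 17546 of the 17841 genes; the build used for the counts is not named. They were searched on both strands for CACGTG, the G-box read by HY5 and PIFs, and for CACATG, the PBE-box read by PIFs. The G-box was in 9.09% of all windows, in 12.2% of those of genes called higher and in 8.32% of those of genes called lower. The PBE-box was in 12.7% of all windows, in 12.4% of the higher and in 19.1% of the lower genes. Among the lists, a G-box was in 10 of 22 windows of clock and flowering genes, 9 of 22 of photosystem subunits, which had no common direction, 7 of 24 of flavonoid genes, 3 of 14 of early light-induced genes and 3 of 18 of light-promoting factors. It was in 4 of 19 windows of the light-harvesting genes, most of which were lower, and in 1 of 18 of chlorophyll synthesis and 2 of 15 of Calvin cycle genes, most of which were higher. Of the PIF and growth genes, 2 of 16 had a G-box and 5 a PBE-box. The motifs do not contain each other, and a match is a description of the letters only.

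GATAAG, the I-box of light-regulated promoters, was in 15.1% of all windows, 19.3% of the higher and 12.8% of the lower. AAAATATCT, the evening element of clock-regulated genes, was in 3.13% of all, 4.55% of the higher, 3.18% of the lower and 5 of 22 clock and flowering windows. CCGAC, the core of the cold and drought element, was in 16.4% of all, 14.9% of the higher and 14.8% of the lower windows. GAANNTTC, the core of the heat shock element, was in 11.3% of all windows, 11.1% of the higher and 9.63% of the lower, and in 8 of 27 of the heat shock list.

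The upstream 250 bases of 4 genes are shown with the match in capitals, 5′ to 3′ on the strand of the gene and ending at the base before the annotated start. They are the called members with the largest change and a match in their lists: ELIP1 (higher, G-box 66 bases before the start, chromosome 3, minus strand), MYB12 (higher, G-box 118 bases before the start, chromosome 2, plus strand), PIL6, also known as PIF5 (lower, −0.63 ± 0.17, adjusted p = 0.0135, G-box 165 bases before the start, chromosome 3, minus strand), and LTI78, also known as RD29A (lower, CCGAC at 140, 90 and 33 bases before the start, chromosome 5, plus strand). LZF1, the B-box gene picked in the same way from the light-promoting factors (1.13 ± 0.18, adjusted p = 4.58e-04), had its match after the start and is not shown.
ELIP1: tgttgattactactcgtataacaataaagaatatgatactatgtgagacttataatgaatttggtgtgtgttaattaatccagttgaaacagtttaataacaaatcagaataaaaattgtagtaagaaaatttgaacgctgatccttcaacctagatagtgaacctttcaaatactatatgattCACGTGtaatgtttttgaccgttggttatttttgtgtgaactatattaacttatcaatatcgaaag
MYB12: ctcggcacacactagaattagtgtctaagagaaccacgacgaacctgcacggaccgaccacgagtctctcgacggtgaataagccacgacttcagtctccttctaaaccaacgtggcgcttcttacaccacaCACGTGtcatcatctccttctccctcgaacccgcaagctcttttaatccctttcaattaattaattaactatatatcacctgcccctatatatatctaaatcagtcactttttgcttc
PIL6: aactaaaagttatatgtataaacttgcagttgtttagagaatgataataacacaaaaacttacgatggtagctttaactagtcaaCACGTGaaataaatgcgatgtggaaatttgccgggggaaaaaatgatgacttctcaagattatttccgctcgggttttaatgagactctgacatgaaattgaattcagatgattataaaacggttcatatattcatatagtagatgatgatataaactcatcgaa
LTI78: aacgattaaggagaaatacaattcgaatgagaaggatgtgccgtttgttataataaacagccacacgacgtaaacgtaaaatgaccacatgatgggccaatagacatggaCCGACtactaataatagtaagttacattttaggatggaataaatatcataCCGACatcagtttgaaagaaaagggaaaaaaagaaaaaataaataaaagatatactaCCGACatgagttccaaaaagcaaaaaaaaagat

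Clock and flowering genes were mostly higher: 15 of 22 were called higher and none lower, with a median of 0.61. AGL20 (AT2G45660), better known as SOC1, which integrates signals that promote flowering, was at 5.205, 4.37 and 4.61 CPM in Col-0 and 28.1, 39.1 and 23.63 CPM in spaQ (2.66 ± 0.20, adjusted p = 1.50e-06), more than the difference at 22 °C (1.43, adjusted p of the difference 0.0151). PRR9, a pseudo-response regulator of the morning, was at 2.51, 1.28 and 2.53 CPM in Col-0 and 9.11, 11.0 and 8.59 CPM in spaQ (2.09 ± 0.35, adjusted p = 6.59e-04); it shares 63% of the 50-base stretches of its transcript end with another gene, so its counts may be split. PRR5, a later regulator of that series, was at 5.86, 3.60 and 5.99 CPM in Col-0 and 24.2, 16.6 and 17.5 CPM in spaQ (1.83 ± 0.20, adjusted p = 2.73e-05). RVE1, a MYB-like factor linking clock and auxin, was at 19.7, 18.8 and 18.7 CPM in Col-0 and 53.1, 83.4 and 48.8 CPM in spaQ (1.70 ± 0.17, adjusted p = 1.32e-05). GI, which acts in flowering and in the clock, was at 13.5, 17.7 and 15.2 CPM in Col-0 and 33.7, 30.1 and 29.5 CPM in spaQ (1.02 ± 0.15, adjusted p = 2.76e-04). For all 5 genes the spaQ libraries lay above those of Col-0. LCL1, a factor related to LHY, just missed the threshold (0.34 ± 0.12, adjusted p = 0.0516). With scaling by library totals 8 members were higher and 1 lower.

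Genes known to be induced by darkness and sugar starvation were mostly higher; all samples were kept in light. Of 20, 16 were higher and none lower, and the median was 0.98. Leaving out replicate 2 of spaQ gave 15 higher and 1 lower, with a median of 1.19. ERD5 (ProDH1), the proline dehydrogenase, was at 80.8, 79.9 and 120.2 CPM in Col-0 and 937, 474 and 629 CPM in spaQ (2.86 ± 0.26, adjusted p = 5.30e-06). ASN1 (AT3G47340), the dark-induced asparagine synthetase, was at 82.6, 58.3 and 62.8 CPM in Col-0 and 596, 169 and 418 CPM in spaQ (2.53 ± 0.42, adjusted p = 6.06e-04), against −0.85 at 22 °C (adjusted p of the difference 0.00559). DIN9 was at 7.16, 7.96 and 8.29 CPM in Col-0 and 49.1, 23.2 and 39.3 CPM in spaQ (2.24 ± 0.29, adjusted p = 8.78e-05). BGAL4, a beta-galactosidase, was at 41.9, 59.1 and 53.5 CPM in Col-0 and 184, 133 and 165 CPM in spaQ (1.65 ± 0.17, adjusted p = 1.73e-05). DIN10, a raffinose synthase-like gene, was at 387, 288 and 457 CPM in Col-0 and 1375, 1094 and 772 CPM in spaQ (1.52 ± 0.22, adjusted p = 2.00e-04). No spaQ value of these genes fell within the Col-0 range, and replicate 2 was the lowest spaQ library for ERD5, ASN1, DIN9 and BGAL4. DIN2, a beta-glucosidase, was not called, at 426, 149 and 389.7 CPM in Col-0 and 768, 89.5 and 549 CPM in spaQ (0.54 ± 0.60, adjusted p = 0.55). ASN1, BGAL4 and DIN10 overlap genes on the other strand.

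Cell division genes were lower or not called. Of 22 genes of the mitotic cycle, 12 were lower, none higher and 10 not called, with a median of −0.81. CDC20.2, an activator of the anaphase-promoting complex, was at 8.46, 7.96 and 10.7 CPM in Col-0 and 3.17, 2.94 and 3.99 CPM in spaQ (−1.44 ± 0.23, adjusted p = 4.16e-04). The mitotic cyclin CYCB2;2 was at 8.74, 6.94 and 11.8 CPM in Col-0 and 2.77, 3.18 and 5.22 CPM in spaQ (−1.31 ± 0.35, adjusted p = 0.0123). SYP111 (KNOLLE), the syntaxin of the cell plate, was at 16.0, 17.0 and 22.8 CPM in Col-0 and 6.34, 7.09 and 11.0 CPM in spaQ (−1.18 ± 0.23, adjusted p = 0.00152); it overlaps NPQ1, which lies on the other strand and was higher. CYCD3;1, a D-type cyclin, was at 17.8, 20.6 and 20.4 CPM in Col-0 and 5.94, 10.5 and 12.3 CPM in spaQ (−0.99 ± 0.22, adjusted p = 0.0043). For these 4 genes every spaQ library lay below every Col-0 library. CDKB1;2, a mitotic kinase, was close to the floor, at 3.16, 3.60 and 4.26 CPM in Col-0 and 1.19, 1.71 and 1.84 CPM in spaQ (−1.17 ± 0.41, adjusted p = 0.0454). Its call was lost in 11 of 16 alternative fits. CYCD3;2 was not called (0.32 ± 0.15, adjusted p = 0.136). At 22 °C 15 were lower, and no member was called for the difference between the temperatures. Without replicate 3 of Col-0, 7 were called lower.

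Cold-regulated and abscisic acid genes had 6 of 23 lower and 2 higher, with a median of −0.35. Leaving out replicate 2 of spaQ gave 8 lower and 2 higher, with a median of −0.47. COR413IM1, a cold-regulated protein of the chloroplast inner envelope, was at 34.0, 37.8 and 43.4 CPM in Col-0 and 0.792, 0 and 3.07 CPM in spaQ (−4.94 ± 0.44, adjusted p = 5.24e-06), more than at 22 °C (−1.66, adjusted p of the difference 0.0225). RD22, a dehydration-responsive gene, was at 242, 229 and 174 CPM in Col-0 and 26.1, 20.8 and 40.2 CPM in spaQ (−2.89 ± 0.20, adjusted p = 8.71e-07). LTI78 (RD29A), the classic reporter of cold and drought signalling, was at 12.5, 10.5 and 9.91 CPM in Col-0 and 2.77, 3.67 and 2.15 CPM in spaQ (−1.91 ± 0.30, adjusted p = 3.33e-04). The groups did not overlap for these genes, nor for RD26, a NAC factor of dehydration and senescence, which was higher, at 18.8, 19.8 and 15.8 CPM in Col-0 and 64.6, 40.1 and 33.1 CPM in spaQ (1.34 ± 0.23, adjusted p = 8.01e-04). COR27, which links cold and the clock, was at 10.5, 32.6 and 13.4 CPM in Col-0 and 63.4, 22.7 and 59.5 CPM in spaQ (1.43 ± 0.46, adjusted p = 0.0316). COR47, a dehydrin, was not called (−0.047 ± 0.23, adjusted p = 0.908), though it was −1.54 at 22 °C (adjusted p of the difference 0.0138).

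Heat shock genes did not move as a group: 4 of 27 were higher and 1 lower, with a median of −0.20. They spread widely among replicates. Their summed level was 2836 to 6896 CPM in Col-0 and 8953, 2453 and 3203 CPM in spaQ. HSP90.1, the heat-induced cytosolic HSP90, was at 681, 393 and 909.9 CPM in Col-0 and 1223, 288 and 397 CPM in spaQ (−0.06 ± 0.52, adjusted p = 0.952). Leaving out replicate 1 of spaQ, the library with the highest level, gave 1 higher and 11 lower, with a median of −0.78; leaving out replicate 2 gave the same counts as all libraries and a median of 0.036. HSP21, a small heat shock protein of chloroplasts, was at 4.09, 3.08 and 9.10 CPM in Col-0 and 1.19, 0.245 and 0.614 CPM in spaQ and, with at most 3 counts in each spaQ library, at least 5.72-fold lower (adjusted p = 0.00348). BIP1 and BIP2, chaperones of the endoplasmic reticulum that respond to unfolded proteins, were higher by 0.47 and 0.67. BIP2 was at 162, 184 and 206 CPM in Col-0 and 367, 255 and 259 CPM in spaQ. BIP3, the strongly stress-inducible paralogue, was high in 1 spaQ library, at 1.86, 3.60 and 3.11 CPM in Col-0 and 18.2, 3.67 and 4.60 CPM in spaQ (1.599 ± 0.55, adjusted p = 0.043). HSFA3, a heat shock factor, was at 6.51, 6.68 and 5.18 CPM in Col-0 and 11.9, 12.7 and 7.98 CPM in spaQ (0.84 ± 0.27, adjusted p = 0.0311), and its call was lost without replicate 2 of spaQ (adjusted p = 0.115).

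Jasmonate genes included 7 of 26 lower and 3 higher (median 0.11). VSP2, a vegetative storage protein and jasmonate marker, was at 12.8, 49.3 and 17.7 CPM in Col-0 and 1.98, 1.47 and 7.37 CPM in spaQ (−2.82 ± 0.63, adjusted p = 0.00404). VSP1 was at 3.81, 24.4 and 12.7 CPM in Col-0 and 3.56, 0.978 and 2.46 CPM in spaQ (−2.55 ± 0.64, adjusted p = 0.00848). Among the enzymes of jasmonate synthesis, AOC4 was at 26.6, 28.5 and 20.6 CPM in Col-0 and 3.96, 5.14 and 6.14 CPM in spaQ (−2.28 ± 0.23, adjusted p = 1.15e-05). LOX2, the chloroplast lipoxygenase, was at 293, 529.8 and 386 CPM in Col-0 and 163, 52.1 and 135 CPM in spaQ (−1.79 ± 0.37, adjusted p = 0.0024), against 0.16 at 22 °C (adjusted p of the difference 0.0276). All Col-0 values lay above all spaQ values for these genes, by a small margin for VSP1. TIFY7 (JAZ9), a repressor of the pathway, was higher, at 24.6, 39.8 and 33.1 CPM in Col-0 and 115, 92.0 and 114 CPM in spaQ (1.73 ± 0.20, adjusted p = 3.81e-05). AOC2 was not called, at 91.1, 191 and 143 CPM in Col-0 and 208, 110.3 and 159 CPM in spaQ (0.17 ± 0.28, adjusted p = 0.7). Without replicate 2 of spaQ, 7 were higher and 7 lower.

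Salicylic acid and indole defence genes had few calls at 28 °C, and the spaQ libraries differed among themselves. Of 23 genes for indole glucosinolate and camalexin synthesis, 1 was higher, 2 were lower and 20 were not called, against 19 higher and 3 lower at 22 °C, and the difference between the temperatures was called for 15. Their summed level at 28 °C was 4152 to 5867 CPM in Col-0 and 6382, 1932 and 8044 CPM in spaQ, so replicate 2 lay below and replicates 1 and 3 above all Col-0 libraries. Without replicate 2, 10 were higher and 2 lower, with a median of 0.49 in place of 0.16. At 22 °C the sum was 1787 to 1881 CPM in Col-0 and 5085 to 7357 CPM in spaQ. CYP71A13, an enzyme of camalexin synthesis, was at 42.9, 137 and 62.2 CPM in Col-0 and 95.4, 8.81 and 311 CPM in spaQ (0.80 ± 0.80, adjusted p = 0.503). PAD3, which makes camalexin itself, was at 136, 243 and 244 CPM in Col-0 and 62.2, 9.05 and 158 CPM in spaQ (−1.45 ± 0.66, adjusted p = 0.119). IGMT2, a methyltransferase of indole glucosinolates, was at 36.3, 39.1 and 53.8 CPM in Col-0 and 85.9, 40.1 and 127 CPM in spaQ (0.96 ± 0.32, adjusted p = 0.0372), against 5.19 at 22 °C. GSTF9, a glutathione transferase of the list, was the member not called with the most counts (−0.35 ± 0.26, adjusted p = 0.347). The genes called lower stayed called without that library. CYP81F4, an indole glucosinolate hydroxylase, was at 72.2, 68.3 and 77.6 CPM in Col-0 and 8.71, 21.0 and 6.45 CPM in spaQ (−2.53 ± 0.34, adjusted p = 1.13e-04). MYB34, a regulator of the pathway, was at 16.1, 17.2 and 13.4 CPM in Col-0 and 5.54, 10.03 and 6.75 CPM in spaQ (−1.01 ± 0.22, adjusted p = 0.00326).

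Salicylic acid genes had 3 of 19 higher and 1 lower (median 0.50), and 6 higher and none lower without replicate 2. GRXS13, a salicylate-induced glutaredoxin, was at 18.2, 34.9 and 26.04 CPM in Col-0 and 97.8, 41.1 and 122 CPM in spaQ (1.74 ± 0.32, adjusted p = 0.00115). WRKY18, a defence regulator, was at 18.7, 23.4 and 25.6 CPM in Col-0 and 50.7, 39.4 and 52.5 CPM in spaQ (1.08 ± 0.15, adjusted p = 1.47e-04), less than at 22 °C (2.28, adjusted p of the difference 0.00643). NPR1, the salicylate receptor and coactivator, was at 19.4, 22.4 and 21.2 CPM in Col-0 and 41.6, 20.06 and 44.2 CPM in spaQ (0.74 ± 0.26, adjusted p = 0.0436). Its call was lost in 11 of 16 alternative fits. EDS1, an immune regulator, was lower, at 19.1, 20.8 and 24.5 CPM in Col-0 and 14.3, 11.5 and 15.3 CPM in spaQ (−0.66 ± 0.20, adjusted p = 0.0208), and was not called without replicate 2 (adjusted p = 0.0562). NPR3 was not called (0.54 ± 0.30, adjusted p = 0.207), nor was PR5 (−0.38 ± 0.47, adjusted p = 0.595), which was higher by 2.52 at 22 °C. At 22 °C 14 of the 19 were higher and none lower.

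Of 30 glutathione transferases, 4 were higher and 5 lower (median −0.15). The share called was 30%, near the 30.93% of all genes tested. Without replicate 2 of spaQ, 6 were higher and 5 lower and the median turned to 0.14; without replicate 3, 5 were higher and 8 lower, with a median of −0.49. ERD9 (GSTU17) was at 39.4, 29.3 and 29.8 CPM in Col-0 and 145, 130.4 and 121 CPM in spaQ (1.998 ± 0.13, adjusted p = 4.90e-07). GSTU25 was at 197, 63.7 and 216 CPM in Col-0 and 36.8, 32.3 and 21.2 CPM in spaQ (−2.42 ± 0.49, adjusted p = 0.0024). GSTU20 was at 230.0, 113 and 159 CPM in Col-0 and 55.8, 45.2 and 51.9 CPM in spaQ (−1.72 ± 0.25, adjusted p = 1.91e-04). The groups did not overlap for any of these, nor for GSTU13, which was at 69.1, 124 and 87.3 CPM in Col-0 and 26.9, 14.7 and 45.4 CPM in spaQ (−1.69 ± 0.32, adjusted p = 0.00141), and GSTU22, which was at 33.2, 19.8 and 32.8 CPM in Col-0 and 10.7, 15.9 and 9.51 CPM in spaQ (−1.25 ± 0.26, adjusted p = 0.00247). ERD9 overlaps its neighbour GSTU18 on the same strand. GSTF2, a stress-induced transferase, was at 1817, 3217 and 2758 CPM in Col-0 and 2261, 436 and 3808 CPM in spaQ (−0.26 ± 0.52, adjusted p = 0.762), with replicate 2 of spaQ the lowest library.

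Aliphatic glucosinolate genes included 6 of 19 lower and 1 higher, with a median of −0.51. CYP83A1, a core enzyme, was at 117, 42.1 and 62.8 CPM in Col-0 and 18.6, 24.0 and 24.2 CPM in spaQ (−1.74 ± 0.31, adjusted p = 9.99e-04). MYB28, a main activator, was at 25.0, 20.04 and 20.6 CPM in Col-0 and 10.7, 10.03 and 12.9 CPM in spaQ (−0.98 ± 0.17, adjusted p = 8.95e-04). The groups did not overlap for these. Its partner MYB29 was at 13.1, 4.62 and 4.95 CPM in Col-0 and 3.96, 3.42 and 1.23 CPM in spaQ (−1.47 ± 0.48, adjusted p = 0.0317). CYP79F1, which acts before CYP83A1, was at 61.6, 14.6 and 24.5 CPM in Col-0 and 16.6, 11.7 and 9.82 CPM in spaQ (−1.46 ± 0.43, adjusted p = 0.02), with replicate 1 of spaQ inside the Col-0 range. The groups also overlapped for MAM1. MAM1, of chain elongation, was at 108.3, 30.1 and 52.1 CPM in Col-0 and 30.5, 24.7 and 29.2 CPM in spaQ (−1.21 ± 0.36, adjusted p = 0.0211). FMO GS-OX3, a side-chain oxygenase, was not called (0.20 ± 0.16, adjusted p = 0.383). Replicate 1 of Col-0 was the highest library for all the lower genes named here, and without it 2 members were called lower. With scaling by library totals, 11 were lower.

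**Figure D4:**
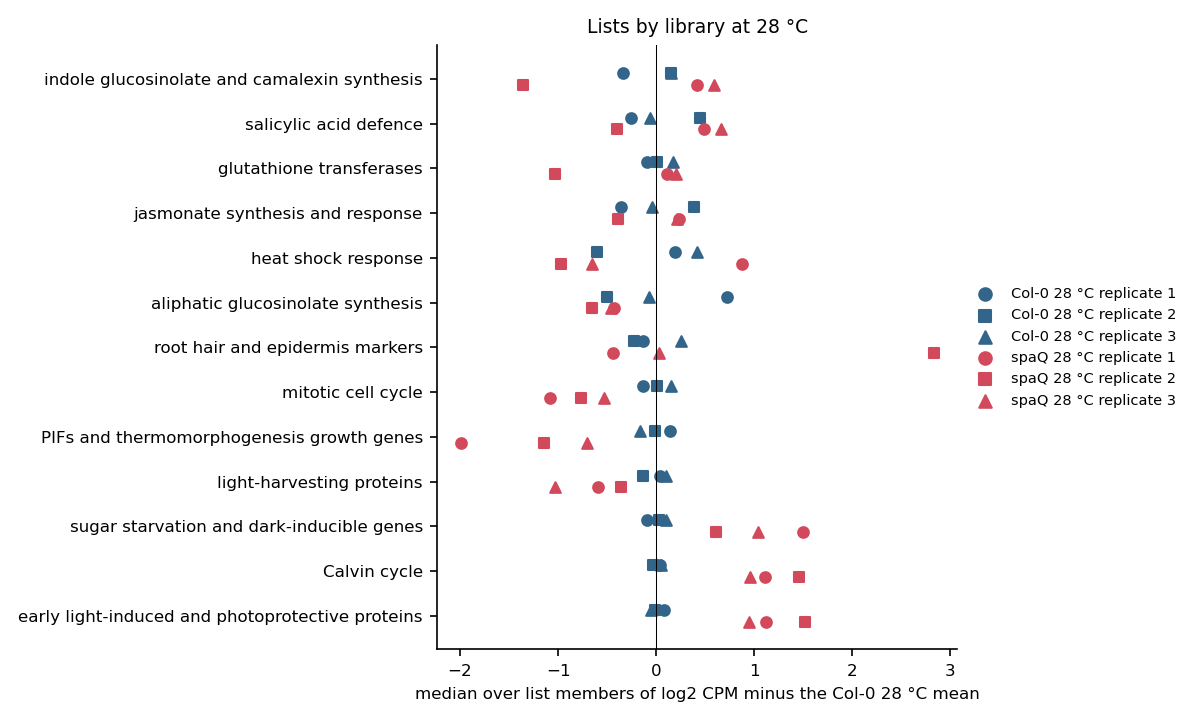
Median over the tested members of a list of log2 CPM minus the mean of Col-0 at 28 °C, for each of the 6 libraries at 28 °C (blue Col-0, red spaQ; circle, square and triangle for replicates 1, 2 and 3). Calvin cycle, early light-induced and starvation genes lie to the right and growth, antenna and mitotic genes to the left in all 3 spaQ libraries, whereas replicate 2 of spaQ lies apart for indole defence genes (−1.36 against 0.41 and 0.59) and for root hair markers (2.83).

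The genes with the largest changes, among those called with at least 10 CPM on average and no overlap between the groups, were partly outside these lists. AT3G01345 was at or under 3 counts in each Col-0 library and at 66.9, 50.6 and 32.2 CPM in spaQ, at least 107-fold higher (adjusted p = 3.95e-07). AT3G23510 was at 1.39, 1.54 and 2.19 CPM in Col-0 and 57.8, 67.3 and 40.2 CPM in spaQ (4.98 ± 0.24, adjusted p = 7.48e-08). GPX7, a glutathione peroxidase, was at 5.02, 6.17 and 5.07 CPM in Col-0 and 152, 165 and 121 CPM in spaQ (4.78 ± 0.18, adjusted p = 1.82e-08). AT1G51820 was at 2.23, 1.798 and 1.84 CPM in Col-0 and 45.1, 34.2 and 40.8 CPM in spaQ (4.30 ± 0.27, adjusted p = 3.71e-07). These 4 and ELIP2 were high in all spaQ libraries. The other 3 varied among replicates. UMAMIT25, of an amino acid transporter family, was at 0.279, 0.771 and 0.461 CPM in Col-0 and 44.8, 4.40 and 22.7 CPM in spaQ (5.65 ± 0.81, adjusted p = 1.98e-04). ELI3-2, an elicitor-activated alcohol dehydrogenase, was at 5.02, 5.40 and 5.41 CPM in Col-0 and 219, 39.6 and 281 CPM in spaQ (5.08 ± 0.72, adjusted p = 1.83e-04). LAS1, a lanosterol synthase, was at 1.67, 3.34 and 1.27 CPM in Col-0 and 81.6, 10.5 and 61.4 CPM in spaQ (4.73 ± 0.65, adjusted p = 1.37e-04). In each of the 3, replicate 2 of spaQ was the lowest of its group. UMAMIT25 was the only 1 of the 8 with no call at 22 °C (−0.73, adjusted p of the difference 0.00696).

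Among the 8 most reduced, AT4G11320, a cysteine protease (CP2), was at 23.4, 25.2 and 24.2 CPM in Col-0 and at most 3 counts in each spaQ library, at least 25.6-fold lower (adjusted p = 6.83e-08). MLP28, of the major latex protein family, was at 166, 193 and 164 CPM in Col-0 and 6.34, 3.91 and 8.29 CPM in spaQ (−4.84 ± 0.20, adjusted p = 1.82e-08). AT1G52190, a transporter of the nitrate and peptide family, was at 76.8, 53.2 and 68.0 CPM in Col-0 and 0.396, 2.201 and 4.60 CPM in spaQ (−4.71 ± 0.33, adjusted p = 8.38e-07). These were lower at 22 °C too, by −4.82, −3.996 and −3.97. NUDT24, a nudix hydrolase, was at 18.6, 33.9 and 38.0 CPM in Col-0 and 0, 0 and 2.46 CPM in spaQ (−5.16 ± 0.61, adjusted p = 4.11e-05). AT1G80130 was at 119.6, 135 and 65.0 CPM in Col-0 and 0.792, 0.978 and 11.0 CPM in spaQ (−4.62 ± 0.55, adjusted p = 4.70e-05). AT1G55230 was at 30.3, 8.22 and 49.2 CPM in Col-0 and 3.96, 0.245 and 0.921 CPM in spaQ (−4.35 ± 0.73, adjusted p = 6.04e-04). AT3G59930 was at 104, 58.6 and 94.5 CPM in Col-0 and 1.98, 9.29 and 1.53 CPM in spaQ (−4.19 ± 0.48, adjusted p = 3.52e-05). None of these 4 was called at 22 °C. The difference between the temperatures was called for AT1G80130 (adjusted p = 0.0272) and AT3G59930 (adjusted p = 0.00633). AT3G59930 shares 38.1% of the 50-base stretches of its transcript end with another gene.

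Of the genes with a change of direction and at least 10 CPM on average over the 6 libraries at 28 °C, the 4 with the largest difference between the temperatures were higher in spaQ at 22 °C and lower at 28 °C. AT1G26240 had 78.2, 31.1 and 169.8 CPM in Col-0 and 5.54, 0.245 and 13.5 CPM in spaQ at 28 °C (−3.93 ± 0.73, adjusted p = 0.00126), with 4.67 at 22 °C. DIR5, a dirigent protein, had 9.39, 35.5 and 26.3 CPM in Col-0 and 3.96, 0.489 and 6.45 CPM in spaQ (−2.74 ± 0.60, adjusted p = 0.00375), with 3.72 at 22 °C. GLP4, a germin-like protein, had 56.2, 13.6 and 59.4 CPM in Col-0 and 7.13, 1.71 and 5.22 CPM in spaQ (−3.33 ± 0.56, adjusted p = 6.08e-04), with 2.06 at 22 °C. PRXCA, a class III peroxidase, had 33.7, 114 and 64.3 CPM in Col-0 and 18.6, 5.38 and 39.3 CPM in spaQ (−1.74 ± 0.61, adjusted p = 0.0447), with 2.58 at 22 °C. Replicate 2 was the lowest spaQ library at 28 °C in all 4, and the PRXCA groups overlapped. Without it the changes at 28 °C were −3.29, −2.11, −2.90 and −1.25, and the call of PRXCA was lost (adjusted p = 0.095).

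Markers of root hairs and epidermis moved with replicate 2 of spaQ. With all libraries 3 of 14 were called higher, FRO2, RHS12 and IRT1, with a median of 2.47; without it none was called and the median was −0.64. The filter on low counts used all 4 groups. In a fit of the 6 libraries at 28 °C alone, 2 of these markers passed it, 1 of them called higher, with a median of 0.83. The median of 2.47 thus rests mostly on genes with few counts at 28 °C. IRT1, the iron transporter of the root epidermis, was at 0.465, 0.257 and 0.461 CPM in Col-0 and 1.58, 14.4 and 0 CPM in spaQ. FRO2, the ferric reductase, was at 6.78, 5.65 and 2.304 CPM in Col-0 and 12.7, 23.2 and 8.90 CPM in spaQ. RHS12, a root hair-specific gene, was at most 0.614 CPM in every other library at 28 °C and at 3.18 CPM in that one. At 22 °C the summed level of these markers was 212 to 261 CPM in Col-0 and 11.3 to 73.1 CPM in spaQ. SKOR, a potassium channel of the root stele, was also higher, at 0.279, 1.03 and 0.115 CPM in Col-0 and 4.36, 3.67 and 1.84 CPM in spaQ (3.10 ± 0.57, adjusted p = 0.00114). What part these cells have in the other results was not tested.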

How the data were processed

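The authors deposited a table of read counts per gene for 12 libraries made by 3′ Tag-Seq. Per the submitters' processing notes, FastQC, Bowtie2, TopHat, HTSeq and edgeR were used, with no versions; the genome build, the strand setting and the treatment of duplicates are not given in the sources used here. Of 33655 features, 8418 were at 0 in all libraries. Reads counted as ambiguous, 0.453% to 0.616% of a library, were left out, as were the other rows that name no gene.

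Counts were tested with edgeR 4.0.16 in R 4.3.3: filterByExpr over the 4 groups kept 17841 genes, TMM scaled the libraries, and a quasi-likelihood fit with 1 coefficient per group over all 12 libraries gave 3 two-sided comparisons (spaQ minus Col-0 at 28 °C, at 22 °C, and the difference of these). P-values were adjusted by Benjamini-Hochberg over all genes at a threshold of 0.05. A standard error is the fold change divided by the square root of F. A bound is the other group's mean over the mean of the floors of 3 counts per library; floors cover counting error only. The procedure was tested on simulated counts.

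Genes were named by rule: the SPA genes; per pathway list, up to 5 called members with the largest changes, the member not called with the most counts, and members called for the difference between the temperatures; called members of marker lists; over all genes, the 8 largest changes in each direction with at least 10 CPM and no overlap; and the 4 largest changes of direction with at least 10 CPM. Of 170 genes analysed in this way, 3 lie outside the rule: HY5, PIL6 and LZF1. The rule marks candidates, and only part of the members called for the difference between the temperatures are named. The 22 pathway and 5 marker lists and the groups compared were chosen with earlier results of these data known. The labels do not say whether replicate numbers pair the samples, and the main fit did not pair them.

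Of 167 of these genes checked, 32 overlap a gene on the other strand and 8 on the same strand, so their counts are uncertain; among them are SPA3, SPA4, TT4, CPD, PORB, LHCB3, RCA, GPX7, RVE1, PSBR, NPR1 and GLP4 (other strand) and BBX32, GAPA, PSAD-2, LUT1 and CYCD3;1 (same strand). Alternatives used DESeq2 1.42.0 and limma 3.58.1 (voom), other scalings and filters, thinned counts, a minimum change, a replicate block, and each library left out.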

Additional observations from a re-analysis of the deposited data

Results flagged for a closer look

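The difference between spaQ and Col-0 at 28 °C departed from that at 22 °C for 2117 genes (edgeR's quasi-likelihood test of the difference of differences, Benjamini-Hochberg adjusted p under 0.05), and this test is what brought the genes below here. Not all list members called by this test are given, and CYP81F2, GSTF7 and WRKY40 are among those left out. Values are the log2 fold change at 28 °C minus that at 22 °C. Among light-signalling genes it was 0.92 for HYH, −1.48 for HFR1, −0.67 for PHYA and −2.10 for PIF3. Among hormone genes it was −1.38 for BRH1, −1.30 for GID1B and −1.17 for EFE. Among flavonoid genes it was −2.45 for LDOX, −4.17 for MYB90, −3.27 for TT8 and −2.72 for PAP1. For early light-induced and photoprotective genes it was 1.45 for ELIP2, 0.71 for CYP97A3, 0.88 for NPQ4 and 0.87 for NPQ1. In the antenna and photosystem lists it was 2.0 for LHB1B1, 0.98 for Lhca6, 2.29 for LHCB2.3, 1.19 for PSB27 and 0.70 for PSBO2. In the Calvin cycle list it was 1.77 for RBCS1B, 0.75 for GAPA, 0.83 for RBCS1A, 0.92 for GAPB, 0.70 for RCA and 0.90 for SBPASE. For chlorophyll synthesis it was 1.18 for HEMA1, 0.92 for PCB2 and 0.77 for CRD1.

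For clock and flowering genes it was 1.23 for AGL20, 1.17 for PRR5 and 1.19 for RVE1. For cold and jasmonate genes it was −3.28 for COR413IM1, 1.49 for COR47, −1.12 for AOC4, −1.95 for LOX2 and −1.61 for AOC2. For salicylic acid and indole defence genes it was −1.21 for WRKY18, −2.90 for PR5, −4.23 for IGMT2, −1.41 for GSTF9, −7.22 for CYP71A13 and −7.60 for PAD3. For starvation genes it was 1.75 for ERD5, 3.38 for ASN1 and 1.14 for BGAL4. For glutathione transferases and GPX7 it was −2.38 for GSTU25, −4.07 for GSTF2 and 0.94 for GPX7. Among genes with the largest changes or a change of direction it was 6.38 for UMAMIT25, −3.98 for AT1G80130, −3.70 for AT3G59930, −8.60 for AT1G26240, −6.46 for DIR5, −5.39 for GLP4 and −4.33 for PRXCA. For root markers it was 4.69 for FRO2, 5.80 for RHS12, 7.32 for IRT1 and 3.81 for SKOR. Replicate 2 of spaQ at 28 °C enters all of these values; it holds more root hair marker counts and fewer indole defence counts than replicates 1 and 3, and its part in them was not tested gene by gene for the difference of differences. Groups of 3 libraries were not searched for single outlying values.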

How the results depend on the processing

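The number of genes called stayed within 1.5 times at both temperatures under other scalings (DESeq2 size factors, library totals), DESeq2's Wald test, limma voom, other filters, thinned counts and a fit of only the 6 libraries of 1 temperature: 4008 (that fit) to 6514 (library totals) at 28 °C against 5519. Requiring a change above 0.5 log2 units gave 2554 genes at 28 °C, 3554 at 22 °C and 588 for the difference between the temperatures, since fewer changes reach that size. Leaving out each library gave 4269 to 6346 at 28 °C, 5970 to 7139 at 22 °C and 885 to 2838 for the difference; the main value was 2117, the lowest came from leaving out the second Col-0 library at 22 °C, and the highest from leaving out the third spaQ library at 28 °C. A replicate block gave 5003 at 28 °C, 6961 at 22 °C and 1343 for the difference. At 28 °C, deviations from the group means had r of −0.207 to −0.0516 between same-numbered libraries and −0.311 to 0.326 between the others. With means of 3 libraries, such values cannot show whether libraries were handled in numbered sets, and the labels do not say. With library totals, 28.4% of the calls at 28 °C were higher against 56.2%, and 50% with no filter. Over 2709 values of named genes under these alternatives, 2494 kept their side of the threshold, 195 lost the call and 20 gained it. No gene called in the main fit or in the alternative changed direction. Genes called in neither could change sign, such as CUL4 (−0.16 to 0.16). Of the 170 named genes, 142 were called in the main fit. Of these, 100 stayed called in every alternative that tested them and 42 lost the call in at least 1. Why calls were lost was not tested. Not every alternative tested each gene: SKOR passed the filter in 13 of 16, and IAA29 and HSP21 did in 15.

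The libraries of spaQ at 28 °C held 2762028 to 4216858 counts, so levels near 1.19 CPM rest on 3 counts or fewer. The time in the warmth and the spaQ alleles are not settled by the labels.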

Other observations

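Of 13 photoreceptor genes, 3 were higher, 2 lower and 8 not called at 28 °C, shares near those over all genes; with library totals, 1 was higher and 3 lower. PHYA, the phytochrome of very weak and far-red light, was at 143, 119 and 103 CPM in Col-0 and 53.9, 53.1 and 55.9 CPM in spaQ (−1.17 ± 0.12, adjusted p = 2.08e-05), and PHOT1, a blue-light receptor for phototropism, was at 150.4, 129 and 119 CPM in Col-0 and 53.5, 58.5 and 68.7 CPM in spaQ (−1.14 ± 0.13, adjusted p = 3.16e-05). The spaQ libraries lay below all Col-0 libraries for both. FKF1, PHYE and PHYB were higher (0.98, 0.82 and 0.59), and without replicate 2 of spaQ the calls of FKF1 (adjusted p = 0.0674) and PHYB (adjusted p = 0.0767) were lost. UVR8, the UV-B receptor, was not called (0.016 ± 0.13, adjusted p = 0.947).

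Of 24 ethylene genes, 3 were higher and 2 lower at 28 °C, against 14 higher and none lower at 22 °C. ACS7 and ACS8, which make the ethylene precursor, were at 7.62, 4.62 and 7.72 CPM in Col-0 and 68.5, 47.2 and 47.3 CPM in spaQ (2.96 ± 0.23, adjusted p = 1.83e-06) and 3.35, 4.62 and 3.23 CPM in Col-0 and 23.0, 6.11 and 43.0 CPM in spaQ (2.71 ± 0.61, adjusted p = 0.00453). ETR1, a receptor, was higher (0.44 ± 0.15, adjusted p = 0.0413), whereas EFE (ACO4), an ethylene-forming enzyme, and EIL1, a signalling factor, were lower (−0.60 ± 0.17, adjusted p = 0.0149 and −0.42 ± 0.14, adjusted p = 0.0336). The calls of ETR1, EIL1 and EFE were lost in 10, 7 and 1 of 16 alternative fits.

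Markers of the stomatal lineage summed to 71.8 to 80.2 CPM in Col-0 and to 44.8, 63.8 and 56.8 CPM in spaQ, and 3 of 9 were lower. TMM, a receptor-like protein of stomatal patterning, was at 10.4, 13.1 and 10.02 CPM in Col-0 and 1.19, 4.89 and 3.99 CPM in spaQ (−1.61 ± 0.29, adjusted p = 9.91e-04). EPF1, a secreted patterning peptide, was at 3.25, 5.14 and 4.61 CPM in Col-0 and 0.792, 1.96 and 1.84 CPM in spaQ (−1.38 ± 0.35, adjusted p = 0.00924). AT4G31805 was called lower as well (−1.7, adjusted p = 0.0166). Markers of endodermis and stele summed to 98.7 to 104 CPM in Col-0 and to 124, 149 and 115 CPM in spaQ. Of 13, 2 were higher, SKOR and SCR, and the median was 0.18. Without replicate 2 of spaQ, 2 were higher and 3 lower, and the median was −1.3. The sums hide this spread. Against the Col-0 mean, the median member was at −0.815 and −0.286 in replicates 1 and 3 of spaQ and at 0.705 in replicate 2. SCR was at 40.8, 34.2 and 29.7 CPM in Col-0 and 46.7, 58.2 and 45.4 CPM in spaQ. Of 14 root tip and 12 seed storage markers, 2 and 1 passed the filter on low counts, and none was called.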
